A study of Mus musculus with 8 samples.

Results

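The 10 genes described here belong to growth factor receptor signalling and were measured in mouse aortic smooth muscle cells given a mimetic of moR-21, a small RNA cut from the microRNA-21 precursor beside miR-21 itself. They were Lrig1 and Errfi1, which restrain receptors, the receptors Egfr, Pdgfra, Pdgfrb and Fgfr1, and the ligands Pdgfa, Fgf2, Fgf7 and Hgf. Every probe carrying one of these 10 gene symbols was taken, 14 probes in all, from a table of 25697 probes and 18138 symbols. The cells were primary cells grown out of pieces of several mouse aortas, and all were held in serum treated with dextran-coated charcoal before use. The methods name wild type C57/Bl6 mice for the carotid injury model and give no strain for the aortas. Both groups received an oligonucleotide at 5 nM with RNAiMAX, and RNA was taken at 48 h. One group received a scrambled control and the other the moR-21 mimetic, with 3 samples in each. One sample of each group was read on 2 arrays, which gave 8 Illumina arrays from 6 samples. The methods call the samples triplicates. Neither the methods nor the sample titles say that the samples came from separate animals. The p-values therefore measure the spread between these samples, which may be technical.

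Growth factor receptors of this kind are tyrosine kinases at the cell surface. A ligand brings receptor molecules together, the kinases phosphorylate each other, and adaptors that dock there pass the signal to Ras, the MAP kinases and PI3-kinase. Inhibitors act on the receptors in turn. LRIG1 is a membrane protein that promotes the ubiquitination and degradation of ErbB receptors, and ERRFI1, also called MIG6, binds the EGFR kinase and is itself induced by growth factors. In arterial smooth muscle, platelet-derived and fibroblast growth factors are known for driving proliferation and migration.

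The sequences below show how the mimetic differs from miR-21, since every comparison here is between cells with and without it. RefSeq places the Mir21a hairpin, 92 bases long, at chr11:86584067-86584158 on the minus strand of GRCm38.p6. The first line holds hairpin bases 1 to 17, which lie before the mature microRNA, and the second holds the microRNA at bases 18 to 39. Capitals mark the seed. The moR-21 of the study starts 1 base before the hairpin as RefSeq draws it, so its bases 2 to 8 are the first bases of the first line.
Mir21a hairpin bases before miR-21a-5p: UGUACCAccuugucgga
mmu-miR-21a-5p: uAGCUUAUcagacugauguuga
The seeds, UGUACCA and AGCUUAU, have different letters.

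A probe was taken as detected on an array when its deposited detection p-value was under 0.01, and a gene was tested when at least 1 probe was detected on at least 1 array. The gene was then read at its brightest detected probe. Levels are log2 signals after quantile normalisation, and changes are differences of group means, mimetic minus control. A gene was called when its fold change exceeded 1.3 (0.38 on the log2 scale) with an adjusted p from limma under 0.002. The adjustment, by Benjamini-Hochberg, ran over all probes detected on at least 1 array, before 1 probe was taken for each gene. The unnormalised median intensity was 102.5 to 109.2 on the control arrays and 103.5 to 106.7 on the mimetic arrays. Between 10285 and 10512 probes were detected per array.

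Of the 10 genes, 8 could be tested. Lrig1 fell and was the 1 gene called, while none was called higher. Over all 8727 tested genes, 4.38% were called lower and 3.41% were called higher. The mimetic samples lay entirely below the control samples for 3 of the 8, Lrig1, Pdgfrb and Pdgfra, and entirely above them for 0. Over all genes these shares were 21.9% and 24.4%. Under an adjusted p of 0.05 with no fold cutoff, the same 3 were lower and 0 higher, beside 17.3% and 18.8% of all genes. The median change of the 8 genes was -0.019 on the log2 scale, beside 0.006 over all tested genes.

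**Figure D1:**
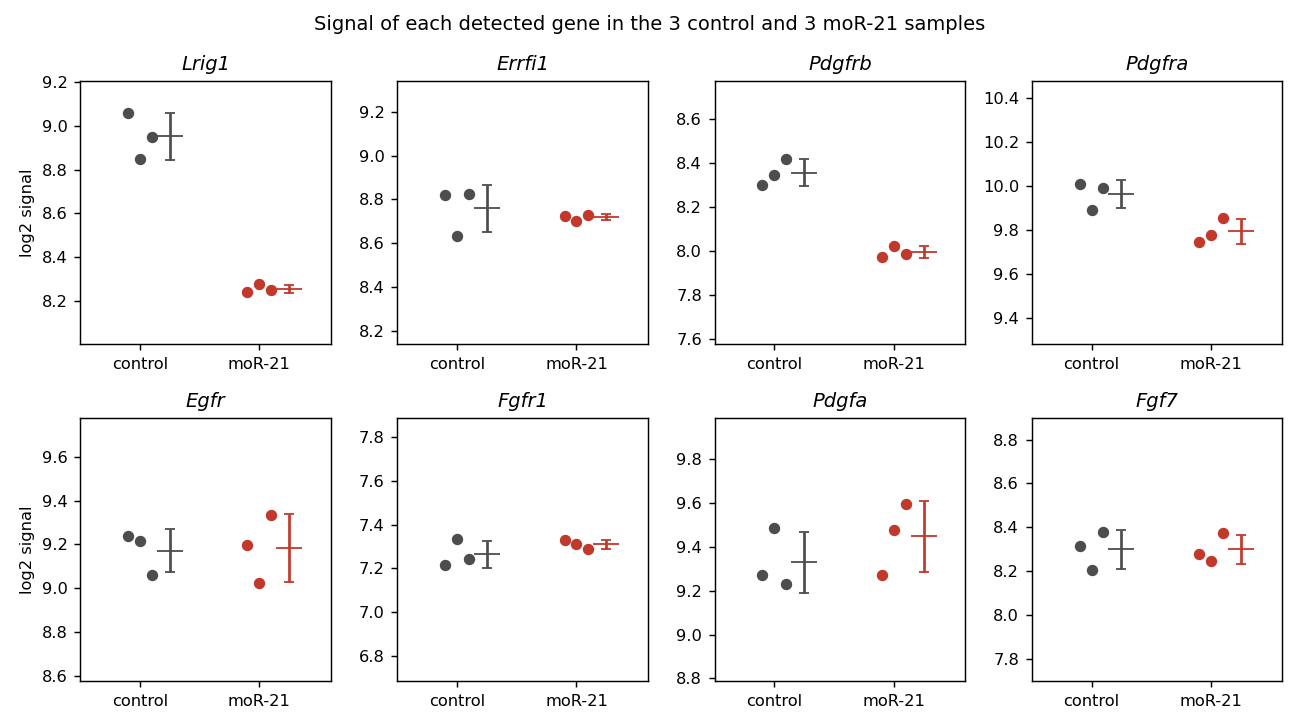
Log2 signal (vertical axis, each panel spanning the same 1.2 log2 units) of the 8 tested genes at their brightest detected probe. Each point is a sample, 3 scrambled controls in grey and 3 moR-21 samples in red, with the mean and SD beside them. The groups are apart for Lrig1, Pdgfrb and Pdgfra and overlap for the other genes.

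Lrig1, the receptor inhibitor, had log2 signals of 9.06, 8.85 and 8.95 in control samples 1, 2 and 3. In the mimetic samples its signals were 8.24, 8.28 and 8.25. All mimetic samples were below the lowest control, and they lay closer together than the controls did. The means were 8.95 ± 0.11 (SD, n = 3) and 8.26 ± 0.018 (SD, n = 3). Lrig1 fell by 0.69 on the log2 scale (95% interval -0.81 to -0.58), a 1.62-fold change or -38.2%, with a limma adjusted p of 3.94e-07. Before normalisation the probe (ILMN_2640862) read 422.9 to 595 on the control arrays and 296.6 to 312.6 on the mimetic arrays, and it was detected on 8 of 8. The 2 arrays of control sample 1 gave 9.08 and 9.04, and those of mimetic sample 3 gave 8.23 and 8.27. Ranked from the largest fall, Lrig1 stood at 92 of 8727 genes. The study picked Lrig1 as a candidate target of moR-21 with these same samples, so its fall here is not independent evidence of its direction. Separately, the study reported lower Lrig1 mRNA by RT-qPCR in smooth muscle cells given moR-21, which was not examined here.

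Errfi1, the other inhibitor, had signals of 8.82, 8.64 and 8.82 in the controls and 8.73, 8.70 and 8.73 in the mimetic samples. All mimetic samples lay inside the control range. The change was -0.04 (95% interval -0.16 to 0.08, limma adjusted p = 0.632). The changes of the 2 inhibitors differed by -0.66 on the log2 scale, and the within-sample difference between them did not overlap between groups (control 0.13 to 0.24, mimetic -0.48 to -0.43). An exact two-sided permutation test gave p = 0.1, the smallest that 3 samples against 3 allow, and 0.2 after adjustment over the 6 differences of this kind that were tested.

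Lrig3, a relative of Lrig1 in the same family of leucine-rich repeat membrane proteins, had signals of 9.39, 9.18 and 9.15 in the controls and 9.41, 9.27 and 9.28 in the mimetic samples. The groups overlapped, with a change of 0.08 (95% interval -0.06 to 0.22, limma adjusted p = 0.387). The Lrig1 change minus the Lrig3 change was -0.77, again with an exact permutation p of 0.1 (0.2 adjusted). Lrig2 was not analysed here.

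Among the receptors, none of the 4 was called. Pdgfrb, the receptor through which PDGF-BB acts on mural cells, came nearest. Its signals were 8.30, 8.35 and 8.42 in the controls and 7.97, 8.02 and 7.98 in the mimetic samples. All mimetic samples were lower than all controls. The means were 8.36 ± 0.061 (SD, n = 3) and 7.99 ± 0.027 (SD, n = 3), a change of -0.36 (95% interval -0.47 to -0.26), 1.29-fold or -22.3%. Its limma adjusted p was 4.97e-05, so Pdgfrb passed the p criterion and stood just under the fold criterion. It ranked at 419 of 8727 genes from the largest fall.

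The call of Pdgfrb turned on the processing. With background correction by nec, which models the background from the detection p-values, its change was -0.51 and it was called. It was also called without control replicate 1, at -0.39, and without moR21 replicate 2, at -0.38. Its adjusted p was under 0.002 under all 19 alternatives, the highest being 0.00125. Lrig1 was called under all 19, with changes from -0.88 to -0.63.

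**Figure D2:**
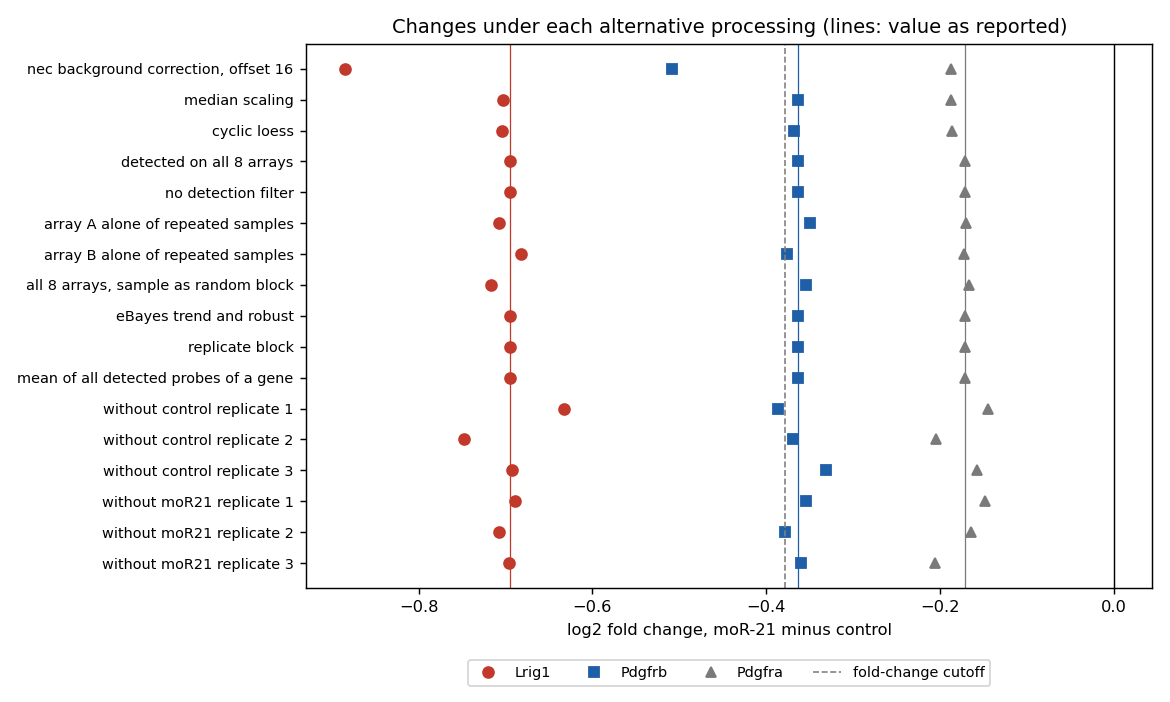
Log2 fold change (horizontal axis) of Lrig1, Pdgfrb and Pdgfra under each alternative that leaves the call rule unchanged (vertical axis), with solid lines at the reported values and a dashed line at the fold cutoff. Lrig1 stays between -0.88 and -0.63, Pdgfrb lies on both sides of the cutoff between -0.51 and -0.33, and Pdgfra stays between -0.21 and -0.14.

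Pdgfra, the receptor for PDGF-AA, had signals of 10.01, 9.89 and 9.99 in the controls and 9.75, 9.78 and 9.86 in the mimetic samples. The groups were apart, with a gap narrower than that of Pdgfrb. The change was -0.17 (95% interval -0.28 to -0.06), 1.13-fold or -11.2%, with a limma adjusted p of 0.0179. Its adjusted p ran from 0.0112 to 0.0938 over the alternatives. The Pdgfrb change was lower than the Pdgfra change by 0.19 on the log2 scale, and the exact permutation test of that difference again gave p = 0.1 (0.2 adjusted), the smallest it can give.

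Egfr, the receptor for EGF and its relatives, was read by 4 probes. At the brightest (ILMN_2693922, transcript variant 1) the signals were 9.24, 9.21 and 9.06 in the controls and 9.20, 9.03 and 9.33 in the mimetic samples. The groups overlapped, with a change of 0.01 (95% interval -0.14 to 0.17, limma adjusted p = 0.909). A probe annotated to transcript variant 2 (ILMN_3128725) read 7.87, 7.93 and 7.82 in the controls and 8.03, 8.12 and 7.98 in the mimetic samples, all above the controls. Its change was 0.17 (95% interval 0.06 to 0.28, limma adjusted p = 0.0204), below the fold cutoff. A further probe of variant 2 (ILMN_3052260) changed by -0.001 (95% interval -0.13 to 0.13, limma adjusted p = 0.99). These 2 probes of 1 variant thus disagreed, but the difference between their changes, 0.17, had an exact permutation p of 0.3 (0.3 adjusted). The change of Pdgfra minus that of Egfr at its brightest probe was -0.18, with an exact permutation p of 0.2 (0.24 adjusted). The dimmest Egfr probe was detected on 2 of 8 arrays, both of control samples, so it entered the test through the controls alone and nothing is read from its change.

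Fgfr1, a receptor for FGF2 among others, was dim. Its signals were 7.22, 7.33 and 7.24 in the controls and 7.33, 7.31 and 7.29 in the mimetic samples, with unnormalised intensities of 146.2 to 164.9 against array medians of 102.5 to 109.2. The groups overlapped and the change was 0.05 (95% interval -0.06 to 0.15, limma adjusted p = 0.506). The other Fgfr1 probe was detected on 0 of 8 arrays.

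**Figure D3:**
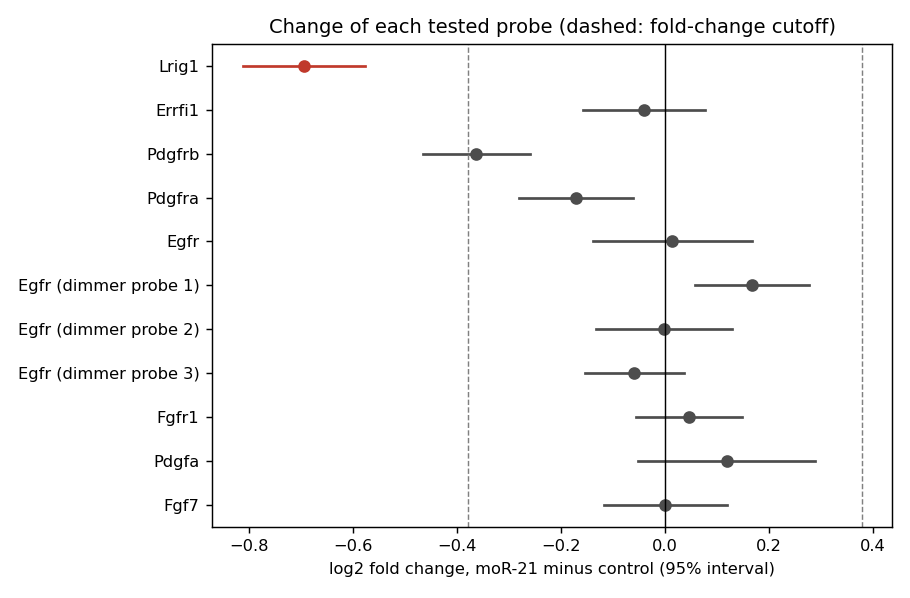
Log2 fold change of each of the 11 tested probes (point) with its 95% interval from limma (line), mimetic minus control, with dashed lines at the fold cutoff of 1.3. Only Lrig1, in red, lies past the cutoff with its whole interval. The Pdgfrb point lies just inside it, and the other 9 probes lie between -0.17 and 0.17.

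Of the 4 ligands, 2 were tested and neither was called. Pdgfa, which encodes the chain that signals through Pdgfra, had signals of 9.27, 9.49 and 9.23 in the controls and 9.27, 9.48 and 9.59 in the mimetic samples. The highest value was in mimetic sample 3, and the groups overlapped. The change was 0.12 (95% interval -0.05 to 0.29, limma adjusted p = 0.286). Leaving out 1 sample at a time moved the change between 0.05 and 0.21: it was 0.05 without moR21 replicate 3 and 0.21 without moR21 replicate 1 (limma adjusted p = 0.0496). Pdgfa changed by 0.29 more than its receptor Pdgfra, with an exact permutation p of 0.2 (0.24 adjusted).

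Fgf7, keratinocyte growth factor, is made by mesenchymal cells and acts mainly on epithelium. Its signals were 8.32, 8.21 and 8.38 in the controls and 8.28, 8.25 and 8.37 in the mimetic samples. The mimetic samples lay inside the control range, with a change of 0.001 (95% interval -0.12 to 0.12, limma adjusted p = 0.993). Fgf2, a mitogen of smooth muscle, and Hgf, the ligand of MET, were not well above background on any array. Their detection p-values were 0.208 to 0.738 and 0.208 to 0.924, so no change could be measured for either.

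The rest of the pathway was covered by 10 lists of genes. The array held 145 of these genes, and 88 could be tested, of which 5 were called lower and 3 were called higher, beside the 4.38% and 3.41% of all genes. The median change over the 88 was -0.003, beside 0.006 over all genes, and single genes ran from -0.72 to 1.02. The list of adaptors, Ras and first kinases held 4 of these 8 calls, with 3 lower and 1 higher of 24 tested.

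Frs2 encodes the docking protein that couples FGF receptors to Ras. Its signals were 8.69, 8.67 and 8.60 in the controls and 7.95, 7.92 and 7.95 in the mimetic samples, well apart. It fell by 0.72 on the log2 scale (SE 0.046, limma adjusted p = 5.37e-08), 1.64-fold. Crk, an adaptor that binds phosphorylated docking proteins, went the other way. Its signals were 9.56, 9.47 and 9.47 in the controls and 10.67, 10.49 and 10.41 in the mimetic samples, with no overlap. It rose by 1.02 (SE 0.062, limma adjusted p = 3.26e-08), 2.03-fold.

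Pik3cb, a catalytic subunit of PI3-kinase, fell by 0.46 (95% interval -0.58 to -0.34, limma adjusted p = 2.07e-05). With nec its change was -0.84. Araf, a RAF kinase downstream of Ras, fell by 0.48 (95% interval -0.60 to -0.37, limma adjusted p = 1.17e-05). A dimmer Araf probe read -0.29 and was not called. The 13 tested genes that growth factors induce held 1 call, Junb, a subunit of the AP-1 transcription factor. Junb fell by 0.39 (95% interval -0.52 to -0.26, limma adjusted p = 1.85e-04), and by 0.60 with nec, where its limma adjusted p was 0.0025. Of the 13, 5 read lower and 8 higher, beside 4208 and 4519 of all tested genes. Phlda1 rose by 0.377 (limma adjusted p = 4.04e-05), just under the fold cutoff.

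Among the 16 tested receptor kinases and ligands outside the families above, Figf and Gas6 were called. Figf, now named Vegfd, encodes a ligand of VEGF receptors. It read 9.62, 9.67 and 9.54 in the controls and 10.45, 10.34 and 10.38 in the mimetic samples, and rose by 0.78 (SE 0.050, limma adjusted p = 5.88e-08). Gas6, the ligand of Axl, Tyro3 and Mertk, read 10.31, 10.29 and 10.24 in the controls and 9.96, 9.95 and 9.79 in the mimetic samples. It fell by 0.38 (SE 0.053, limma adjusted p = 7.36e-05), just past the fold cutoff. Gas6 was called under 13 of the 19 alternatives and Junb under 14, and neither was called with nec, with array B alone of the repeated samples, without control replicate 2, without moR21 replicate 3 or at a fold over 1.5. Without moR21 replicate 3 the changes were -0.33 for Gas6 and -0.35 for Junb, and without control replicate 2 they were -0.38 and -0.33. Gas6 was also not called without control replicate 1, at -0.37.

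Of 13 tested genes listed as Sprouty, Spred and phosphatase inhibitors, 1 was called, Lrrfip1. It is none of these, but a transcriptional repressor known for acting on the Egfr promoter. It read 8.16, 8.02 and 8.004 in the controls and 8.91, 8.93 and 8.86 in the mimetic samples, and rose by 0.83 (SE 0.053, limma adjusted p = 4.56e-08). Its dimmer probe read 0.14 higher and was not called, and the mean of its detected probes rose by 0.49.

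No gene was called in the other lists, which held few tested genes, some of them near background. Of 3 tested ErbB genes of 10 on the array, Btc, an EGFR ligand, had the largest change, at -0.04 (limma adjusted p = 0.562). Btc and Hbegf were near background, with mean control signals of 6.82 and 6.81, so their small changes say little. Of 2 tested PDGF genes, Pdgfc, a ligand, read 0.12 (limma adjusted p = 0.0715). Of 3 tested FGF genes of 15 on the array, Fgfrl1, an FGF receptor without a kinase domain, read 0.24 with all mimetic samples above the controls (limma adjusted p = 0.00128), and missed the fold cutoff. Of 4 tested HGF and MET genes, Plau, a protease, read 0.10 (limma adjusted p = 0.129). Of 9 tested genes of receptor ubiquitination and uptake, Sh3kbp1, an adaptor of the Cbl ubiquitin ligases, read 0.21 (limma adjusted p = 0.00885).

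**Figure D4:**
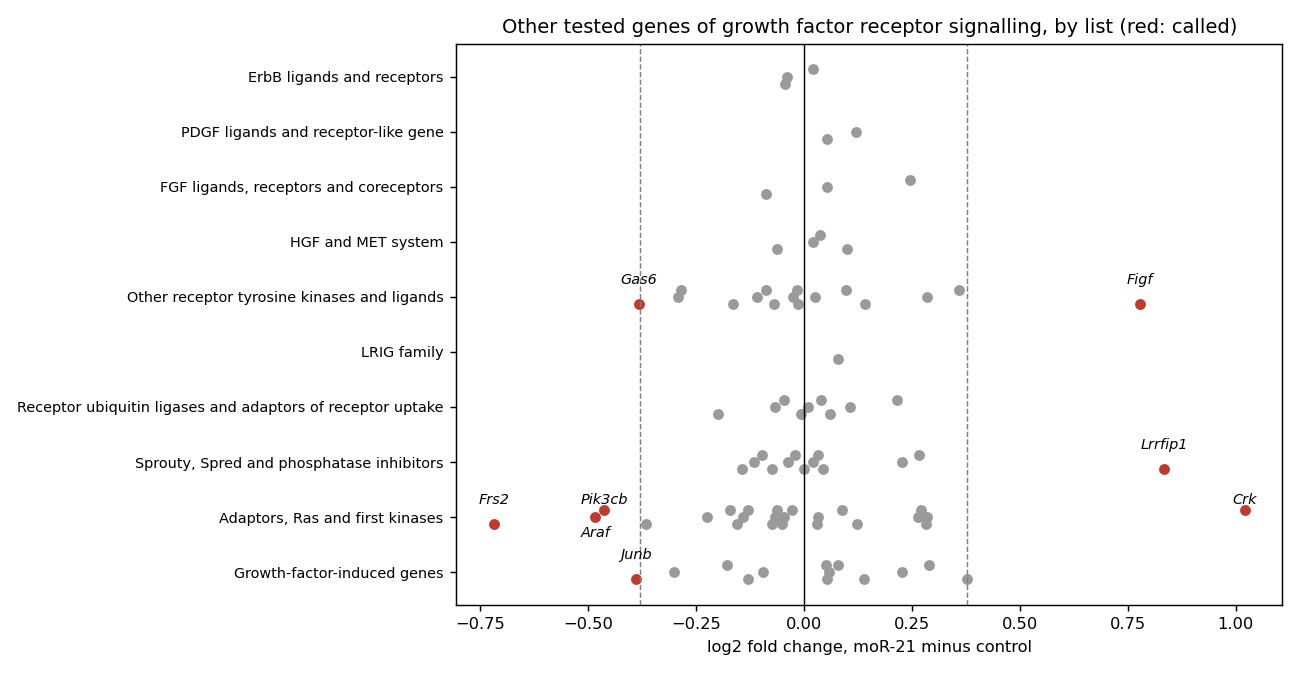
Log2 fold change (horizontal axis) of the 88 tested genes in the 10 pathway lists (rows, 1 point per gene), mimetic minus control, with dashed lines at the fold cutoff of 1.3. Named red points are the 8 called genes, from Frs2 at -0.72 to Crk at 1.02. The grey points lie between the dashed lines, Phlda1 at 0.38 nearest to one.

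The 5 genes outside the 10 whose profiles were nearest to that of Lrig1 were Slc40a1, the iron exporter ferroportin, Arl6ip1, a membrane protein of the endoplasmic reticulum, D19Wsu162e, Fundc1, a receptor for mitophagy, and Lrrc8d, a subunit of volume-regulated anion channels. Nearness was the Euclidean distance between log2 signals over 6 samples, each gene centred on its own mean, and it ran from 0.0908 for Slc40a1 to 0.141 for Lrrc8d. Pearson correlations with Lrig1 were 0.988 to 0.996 over the same 6 samples, which share the arrays and the group difference. Because these genes were chosen for nearness to Lrig1, both the high correlations and a fall of similar size follow from the choice. Their falls ran from 0.71 for Slc40a1 to 0.76 for D19Wsu162e.

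The summed markers of smooth muscle, fibroblasts and mesothelium shifted with the mimetic, while those of endothelium and macrophages overlapped between the groups. The sample descriptions hold the term AoECs, while the source and cell type labels name aortic smooth muscle cells. Of 8 endothelial markers, 7, Pecam1 and Cdh5 among them, were not detected, and Vwf was near background. Of 7 smooth muscle markers, 5 were detected on at least 1 array, Acta2 brightly, but Myh11 and Cnn1 on no array. Only 3 of the 7 were detected on all arrays. The summed intensity of the smooth muscle list was 10150 to 10530 in the controls and 12900 to 13750 in the mimetic samples, with Acta2 called higher (31.5%). Acta2 was by far the brightest gene of this list and set most of its sum. The other members did not move together. Des read -0.38 with all mimetic samples below the controls (limma adjusted p = 8.6e-05) and just missed the fold cutoff. Smtn read -0.05, Tagln 0.20 and Lmod1 0.05. Tagln and Lmod1 were near background, so little is read from their changes. Their mean signals were 6.74 and 6.79 in the controls and 6.94 and 6.84 in the mimetic samples. The sum of 7 fibroblast markers, 6 of them detected and Pdgfra among them, was 14150 to 14710 in the controls. It was 11540 to 12830 in the mimetic samples, with Lum called lower (-32.1%). Dcn, the brightest of this list, read -0.22 (limma adjusted p = 0.00654) and was not called. Pi16, Col14a1 and Clec3b were dim and not called, at -0.29, -0.04 and 0.06. Only 3 markers of this list were detected on all arrays. The mean Pi16 signal was 6.94 in the controls and 6.65 in the mimetic samples, beside 6.63 for the undetected Fgf2 probe in the mimetic samples. Nothing is therefore read from the change of Pi16. The sum of 5 mesothelial markers was 1057 to 1067 and 688.7 to 698.8, with Upk3b called lower (-57.6%) and Msln, Upk1b and Lrrn4 not detected. Krt19, the other detected marker of this list, read -0.13 with overlapping groups (limma adjusted p = 0.115). The sum of 7 macrophage markers was 2294 to 2352 and 2264 to 2347, with Lyz and Lyz2 called higher and Cd68, Emr1 and Ptprc not detected. Cd14, in the same list, read -0.27 with all mimetic samples below the controls (limma adjusted p = 3.38e-04), and Csf1r read -0.01. The part of these shifts in the lower Pdgfra, Pdgfrb and Lrig1 signals was not tested. Fewer cells of a type and less RNA per cell cannot be told apart in bulk RNA.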

How the data were processed

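The authors deposited a table of non-normalised probe intensities with a detection p-value for each probe and array, read with BeadStudio from Illumina mouse BeadChips. Background correction before deposit is not given in the sources used here. The study used lumi and limma.

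Here the intensities of 8 arrays were quantile normalised together and then put on the log2 scale, and the 2 arrays of a repeated sample were averaged. Genes were tested with limma 3.58.1 in R 4.3.3 on 6 samples, with no covariate. A call required both criteria, a fold change above 1.3 and a Benjamini-Hochberg p below 0.002. Differences between the changes of 2 genes were tested by exact permutation over the samples. The text names the 10 genes with all probes, each called gene of the pathway lists, the largest change of each list with no call, and the 5 genes nearest to Lrig1. The genes, lists and tests were chosen with earlier results of these data known. The fit was tested on simulated data. Listed genes with no row, such as Erbb2 and Lrig2, were not analysed here. The number of arrays limits the precision.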

Additional observations from a re-analysis of the deposited data

How the results depend on the processing

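Across 19 alternatives Lrig1 stayed called, from -0.88 to -0.63 (-0.75 to -0.63 with 1 sample left out). The replicate block, which uses the sample numbers as pairs, gave -0.69 for Lrig1 and changed no call among the 10 genes or the pathway genes. Same-numbered samples had correlations of 0.187, 0.044 and 0.060, not every sample correlated best with its own number, and all-gene calls went from 382 lower and 298 higher to 383 and 299. Of the 10 genes, 2 were called lower with nec, 3 under an adjusted p of 0.05 without a fold cutoff, and 1 to 2 with 1 sample left out. None was called higher under any of the 19. Pathway genes called lower numbered 3 with array B alone, 14 at an adjusted p of 0.05, 1 at a fold over 1.5, and 3 to 5 with 1 sample left out. Those called higher numbered 16 at an adjusted p of 0.05 and 3 to 5 with 1 sample left out. Without control replicate 2 or without moR21 replicate 3, Gas6 and Junb were no longer called, which left 3 lower, and without moR21 replicate 3 Phlda1 and Vegfb joined those called higher, which made 5. Over all genes a fold over 1.5 gave 147 lower and 70 higher, and the adjusted p alone gave 1506 lower and 1645 higher. The sign of 2 near-zero changes turned. Egfr was -0.009 with median scaling, -0.006 with cyclic loess and -0.061 to 0.094 with 1 sample left out, and Fgf7 was -0.002 with cyclic loess, -0.007 with array B alone and -0.045 to 0.040 with 1 sample left out. Fewer samples, or a looser or stricter rule, are the construction of several of these alternatives, and for the others the cause was not tested. Fgf2 and Hgf were limited by signal near background, and the small number of samples by a smallest exact p of 0.1.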
